A study of Homo sapiens with 12 samples.

Results

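A group of 10 genes of triglyceride synthesis and lipid droplets were followed in enterocytes derived from human induced pluripotent stem cells. They were PLIN2, PLIN3, G0S2, PNPLA2, CIDEB, CIDEC, DGAT1, DGAT2, MOGAT2 and MOGAT3, chosen by name as 10 of the 58735 genes in the deposited table of FPKM (fragments per kilobase of gene, normalised by the authors for library size). All cells came from the line RPChiPS771 and were kept in the medium M3 from day 15 to day 23. The Control group received no VD3, the VD3 group 1 µM VD3, the VPA group 100 µM VPA without VD3, and the VD3VPA group 100 µM VPA with 1 µM VD3. The 12 libraries fall into 4 groups of 3, and the stated aim was to learn how VPA and VD3 act on enterocyte differentiation at the maturation stage. VD3 is vitamin D3, and VPA is valproic acid, an inhibitor of histone deacetylases. Only 1 cell line was used. The labels do not say whether replicate libraries are separate cultures, so each p-value speaks for the spread among these libraries, which may be technical.

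Enterocytes, the absorptive cells of the gut, take up fatty acids and monoacylglycerol from digested fat and rebuild them into triglyceride. Monoacylglycerol acyltransferases (MOGAT enzymes) make diacylglycerol, and diacylglycerol acyltransferases (DGAT enzymes) add the last fatty acid. The product leaves the cell in chylomicrons or is stored in cytosolic lipid droplets, which are coated by perilipins (PLIN) and shaped by CIDE proteins. Adipose triglyceride lipase, encoded by PNPLA2, opens the breakdown of the stored fat, and G0S2 is its protein inhibitor.

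Between 32160289 and 43998467 fragments per library could be recovered from the FPKM values. The enterocyte genes VIL1 and CDX2 were at 98.0 to 148 and at 41.8 to 56.6 FPKM in all libraries. SI and SLC5A1, a disaccharidase and a sugar carrier of mature enterocytes, did not exceed 1.21 and 1.00 FPKM. LCT, ALPI and FABP2, other enterocyte markers, were higher in the groups with VD3. The mean of LCT was 4.64 FPKM in Control, 93.3 with VD3, 7.87 with VPA and 152 with both. That of ALPI was 9.87, 218, 12.98 and 314 FPKM in the same order, and that of FABP2 2.64, 22.6, 3.31 and 51.1. The mean of SI was instead highest in Control. That of VIL1 was lower in the groups with VD3, at 132, 110, 141 and 99.8 FPKM in the same order. RBP2 was higher in the groups with VPA, with means of 91.9, 111, 284 and 292 FPKM. CDH17 was highest with VD3 alone, with means of 137, 287, 153 and 138 FPKM. The means of APOA4 were 719, 4538, 3742 and 5153 FPKM. The 10 enterocyte markers summed to 927 to 1297 FPKM in Control, 4231 to 6413 in VD3, 4143 to 4868 in VPA and 5758 to 6894 in VD3VPA, most of it APOA4. The fetal liver gene AFP stood at 21500.5 to 32070 FPKM. The 10 hepatocyte markers, most of it AFP, summed to 37162 to 38330 FPKM in Control, 35575 to 38583 in VD3, 36286 to 41613 in VPA and 32792 to 37192 in VD3VPA. Some single markers moved more than the sum, and not in the same direction. The mean of FGB was 633, 3371, 265 and 2765 FPKM in the same order, that of ALB 1500, 1354, 509 and 1190, and that of AHSG 241, 499, 224 and 939. AFP and SERPINA1 were highest with VPA, with means of 26953, 22931, 30636 and 22799 FPKM and of 1707, 1987, 2830 and 1985 FPKM. TTR was lower in the groups with VPA, with means of 6756, 6590, 4636 and 4701 FPKM. The 10 adipocyte markers, which matter here because fat cells express perilipins and CIDE genes strongly, summed to 3.37 to 3.85 FPKM in Control, 3.70 to 4.27 in VD3, 5.41 to 6.01 in VPA and 4.67 to 5.61 in VD3VPA, with only LIPE and CFD above 1 FPKM. The sums of 8 macrophage markers were 1.72 to 2.07 FPKM in Control, 1.42 to 1.60 in VD3, 1.76 to 2.16 in VPA and 0.699 to 0.939 in VD3VPA. No macrophage marker had a mean of 1 FPKM in any group. Those of 8 mesenchymal markers summed to 19.5 to 28.2 FPKM in Control, 38.6 to 47.1 in VD3, 25.7 to 31.9 in VPA and 31.5 to 53.9 in VD3VPA. The 6 goblet cell markers summed to 72.2 to 76.4 FPKM in Control, 91.6 to 129 in VD3, 54.7 to 67.3 in VPA and 69.8 to 77.8 in VD3VPA. The 6 enteroendocrine markers summed to 2.49 to 3.08, 1.08 to 2.59, 0.610 to 1.15 and 2.89 to 4.36 FPKM in the same order. The part of these shifts in the results below was not tested. In such bulk RNA, fewer cells of a type and less RNA per cell cannot be told apart.

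Of the 10 genes, 9 reached 1 FPKM in at least 3 libraries and were tested with limma on log2(FPKM + 1), with Benjamini-Hochberg adjustment over 12578 genes. With VD3, 7 were called at an adjusted p under 0.05, where 62.5% of all tested genes were called. Those that rose were 5, G0S2, PNPLA2, DGAT1, PLIN3 and DGAT2, beside 31.3% of all tested genes, and those that fell were 2, PLIN2 and MOGAT3, beside 31.2%. With VPA, 6 were called beside 52.7% of all tested genes. PLIN2, CIDEC, DGAT2, MOGAT2 and PLIN3 rose (5, beside 29.6%), and PNPLA2 fell (1, beside 23.1%). With both compounds, 5 differed from Control beside 64.2% of all tested genes. G0S2, DGAT1 and PNPLA2 rose (3, beside 31.1%), and PLIN2 and MOGAT3 fell (2, beside 33.1%). The 3 comparisons share the Control libraries. Because most genes moved, these counts alone do not set the 9 genes apart from the rest, and the sizes and directions below carry the description. The median log2 change over all tested genes lay between -0.025 and 0.015 in the 5 pairs of groups, with a median SE of 0.0658.

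**Figure D1:**
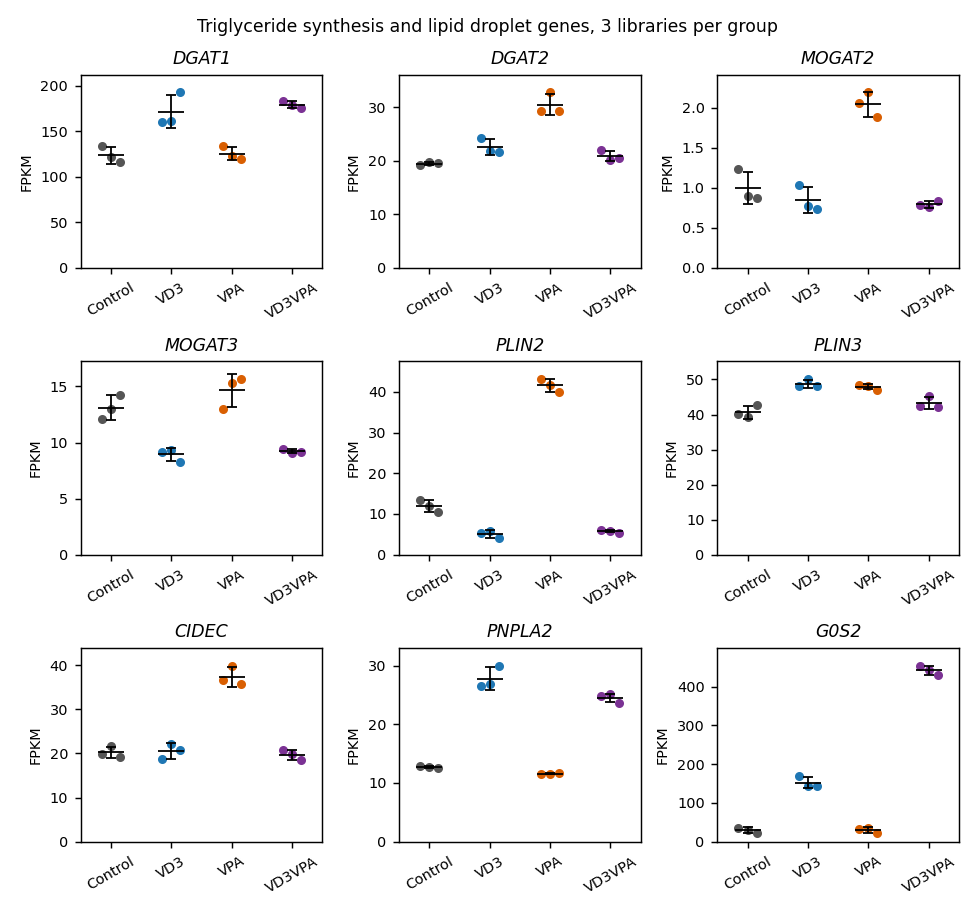
FPKM (y axis, linear from 0, a scale of its own for each gene) of the 9 tested genes in each library of the 4 groups (x axis), with points for libraries and bars for the mean ± SD of 3 libraries. PLIN2, CIDEC, DGAT2 and MOGAT2 are highest in all 3 VPA libraries, and G0S2 is highest in all 3 VD3VPA libraries.

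DGAT1 (GRCh38, chr8:144314584-144326910, minus strand) encodes the acyltransferase that makes most of the triglyceride for chylomicrons in the gut, and it was the most highly expressed of the synthesis genes. Its level was 133, 121 and 116 FPKM in the Control libraries, 160.1, 161 and 193 with VD3, 133, 122 and 119.8 with VPA and 183, 179 and 175 with both. All 6 libraries that received VD3 lay above all 6 that did not. The mean rose 1.39-fold with VD3 (log2 change 0.47, SE 0.077, adjusted p = 0.000244) and 1.45-fold with both compounds against Control (log2 change 0.54, SE 0.077, adjusted p = 7.68e-05). VPA alone gave a log2 change of 0.020 (adjusted p = 0.845), and the VD3 and VD3VPA libraries overlapped. DGAT1 shares 139 exon bases with HSF1 on the opposite strand, which stood at 13.1 to 16.7 FPKM.

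DGAT2 (chr11:75759512-75801535, plus strand) encodes an unrelated enzyme for the same step, which is known for its link to lipid droplets. Its level was 19.2, 19.8 and 19.6 FPKM in Control, 24.3, 21.8 and 21.7 with VD3, 29.4, 32.9 and 29.4 with VPA and 21.97, 20.2 and 20.5 with both compounds. The VPA libraries stood above all others, and the VD3 and VD3VPA libraries overlapped. VPA raised the mean 1.57-fold (log2 change 0.62, SE 0.057, adjusted p = 5.55e-06), and VD3 raised it 1.16-fold (log2 change 0.20, SE 0.057, adjusted p = 0.00976). VD3 added to VPA lowered it 1.46-fold (log2 change -0.53, SE 0.057, adjusted p = 8.90e-06), so that VD3VPA differed from Control by 0.094 on the log2 scale (adjusted p = 0.173). The call with VD3 was lost when libraries were scaled to their own fragment totals (adjusted p = 0.0643).

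MOGAT2 (chr11:75717819-75732958, plus strand), the neighbour of DGAT2, encodes the main monoacylglycerol acyltransferase of the small intestine. It was the lowest of the 9 tested genes, with 101 to 303 fragments per library. Its level was 1.23, 0.893 and 0.872 FPKM in Control, 1.04, 0.771 and 0.7402 with VD3, 2.05, 2.19 and 1.88 with VPA and 0.781, 0.757 and 0.836 with both. The VPA libraries were apart from all others, and MOGAT2 passed the filter on low values only through them, since 2 other libraries reached 1 FPKM. A gene that passes in this way had to differ in VPA, so its calls, which are among the 6 for VPA, the 9 for VD3VPA against VPA and the 6 in the interaction, support nothing about those counts. With a filter of 0.3 FPKM, which it passed in every library, the adjusted p-values of these 3 comparisons were 0.000132, 1.25e-05 and 0.00138. The ratio of means was 2.04 for VPA against Control (log2 change 0.61, SE 0.084, adjusted p = 0.000107) and the fall was 2.58-fold for VD3VPA against VPA (log2 change -0.76, SE 0.084, adjusted p = 9.81e-06). VD3 alone gave a log2 change of -0.11 (adjusted p = 0.271). The addition of 1 before the logarithm understates changes at such a level.

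MOGAT3 (chr7:101195007-101201038, minus strand) encodes a further acyltransferase of this family and stood at a higher level than MOGAT2 in every library. It was at 12.1, 12.95 and 14.3 FPKM in Control, 9.18, 9.35 and 8.31 with VD3, 12.98, 15.3 and 15.7 with VPA and 9.42, 9.06 and 9.196 with both compounds. All 6 libraries with VD3 lay below all 6 without it, the mirror image of DGAT1. The mean fell 1.46-fold with VD3 (log2 change -0.50, SE 0.074, adjusted p = 0.000114) and 1.59-fold when VD3 was added to VPA (log2 change -0.61, SE 0.074, adjusted p = 2.21e-05). VPA alone gave a log2 change of 0.15 (adjusted p = 0.112), and became a call without Control replicate 3 (adjusted p = 0.0434) or VPA replicate 1 (adjusted p = 0.0174).

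PLIN2 (chr9:19108375-19149290, minus strand) encodes the perilipin that coats droplets in most cells outside fat tissue and is degraded when it has no droplet to bind. Its level was 13.4, 11.97 and 10.4 FPKM in Control, 5.33, 5.903 and 4.06 with VD3, 43.2, 41.7 and 40.04 with VPA and 6.12, 5.93 and 5.45 with both. The VPA libraries were highest, Control came next without overlap, and the VD3 and VD3VPA libraries lay below and overlapped each other. VPA alone raised PLIN2 3.49-fold, from 11.9 ± 1.49 FPKM to 41.6 ± 1.56 FPKM (SD, n = 3), with log2 change 1.73, SE 0.11, adjusted p = 3.81e-07. VD3 alone lowered it 2.34-fold (log2 change -1.09, SE 0.11, adjusted p = 4.42e-06), and VD3 added to VPA lowered it 7.14-fold (log2 change -2.64, SE 0.11, adjusted p = 3.10e-09). VPA added to VD3 gave a log2 change of 0.17 (adjusted p = 0.235). The place of PLIN2 among all tested genes moved from percentile 74.8 in Control to 92.2 with VPA and 53.2 with VD3.

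PLIN3 (chr19:4838341-4867768, minus strand) encodes a perilipin that is stable in the cytosol and moves onto new droplets. Its level was 40.2, 39.2 and 42.8 FPKM in Control, 48.1, 50.1 and 48.2 with VD3, 48.3, 48.3 and 47.1 with VPA and 42.6, 45.4 and 42.1 with both. The VD3 and VPA libraries lay above Control, and the VD3VPA libraries overlapped with Control. The mean rose 1.199-fold with VD3 (log2 change 0.26, SE 0.044, adjusted p = 0.000333) and 1.18-fold with VPA (log2 change 0.23, SE 0.044, adjusted p = 0.00102), while VD3VPA against Control gave a log2 change of 0.089 (adjusted p = 0.0956). VD3VPA was lower than VD3 by 1.13-fold (adjusted p = 0.01202) and lower than VPA by 1.11-fold (adjusted p = 0.0144). The first was lost without VD3VPA replicate 3 (adjusted p = 0.0537). The second was lost under equal FPKM sums, own fragment totals and quantile normalization (adjusted p = 0.0733, 0.242 and 0.711) and without VD3VPA replicate 1 or 3 (adjusted p = 0.0507 and 0.0616).

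CIDEC (chr3:9866711-9880254, minus strand) encodes a protein that moves lipid from small droplets into large ones and is best known from fat cells. Its level was 19.9, 21.7 and 19.2 FPKM in Control, 18.7, 22.2 and 20.7 with VD3, 36.6, 39.9 and 35.7 with VPA and 20.8, 19.9 and 18.6 with both. Only the VPA libraries were apart, and the other 3 groups overlapped with each other. VPA raised the mean 1.85-fold (log2 change 0.85, SE 0.070, adjusted p = 2.41e-06), and VD3 added to VPA lowered it 1.897-fold (log2 change -0.89, SE 0.070, adjusted p = 6.20e-07). VD3 alone gave a log2 change of 0.017 (adjusted p = 0.852) and VD3VPA against Control a log2 change of -0.037 (adjusted p = 0.6698). The defining adipocyte genes ADIPOQ and LEP stood at or below 0.0111 FPKM, LPL was at 0, and CIDEA and PLIN1, which fat cells express with CIDEC, did not pass the filter on low values. LIPE, the hormone-sensitive lipase that fat cells also express, was also highest with VPA, at 1.25 ± 0.2299 FPKM in Control, 1.78 ± 0.0965 with VD3, 3.76 ± 0.278 with VPA and 2.74 ± 0.141 with both, and its part in the result was not tested.

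CIDEB (chr14:24305096-24311430, minus strand), the family member known for lipoprotein loading in liver and gut, was listed at 0 in all 12 libraries. All 3198 of its exon bases are shared with genes on the opposite strand. NOP9 covers 1954 of them and LTB4R2 covers 1276, and these stood at 3.61 to 5.14 and 0.385 to 0.816 FPKM. Of 312 protein-coding genes whose exon bases are all shared with another gene, 76.6% were listed at 0 in every library, against 8.86% of the 19639 others. The strand setting of the counting is not given in the sources used here, so the value of 0 is not read as a level of CIDEB.

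PNPLA2 (chr11:818902-825573, plus strand), the lipase gene, was at 12.9, 12.6 and 12.5 FPKM in Control, 26.5, 26.9 and 29.97 with VD3, 11.4, 11.6 and 11.7 with VPA and 24.8, 25.1 and 23.7 with both. No group overlapped with another, in the order VD3, VD3VPA, Control and VPA from high to low. VD3 raised the mean 2.19-fold, from 12.7 ± 0.181 FPKM to 27.8 ± 1.91 FPKM (SD, n = 3), with log2 change 1.07, SE 0.047, adjusted p = 9.11e-09. The rise was 2.12-fold when VD3 was added to VPA (log2 change 1.02, SE 0.047, adjusted p = 7.49e-09). VPA gave small falls in log2 level, -0.12 without VD3 (adjusted p = 0.0438) and -0.17 with it (adjusted p = 0.0147). The first was lost without the filter on low values (adjusted p = 0.0753), under voom (0.0582) and without any 1 of the Control, VPA or VD3VPA libraries (highest adjusted p = 0.104), and the second without VD3VPA replicate 3 (adjusted p = 0.0628).

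G0S2 (chr1:209675420-209676388, plus strand), the lipase inhibitor, changed most among the 9 tested genes. It was at 36.01, 30.2 and 22.2 FPKM in Control, 169, 143 and 144 with VD3, 33.2, 34.1 and 22.5 with VPA and 454, 443 and 431 with both. The VPA and Control libraries overlapped, VD3 stood above them, and VD3VPA stood above VD3. The mean rose 5.16-fold with VD3, from 29.5 ± 6.94 FPKM to 152 ± 14.7 FPKM (SD, n = 3), with log2 change 2.35, SE 0.17, adjusted p = 4.11e-07. VPA added to VD3 raised it a further 2.91-fold to 442 ± 11.6 FPKM (log2 change 1.54, SE 0.17, adjusted p = 7.35e-05), so that both compounds gave 15.02-fold over Control (log2 change 3.89, SE 0.17, adjusted p = 5.84e-09). VPA alone gave a log2 change of 0.024 (adjusted p = 0.917). In percentiles of all tested genes, G0S2 stood at 89.6 in Control and 99.5 with both compounds.

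**Figure D2:**
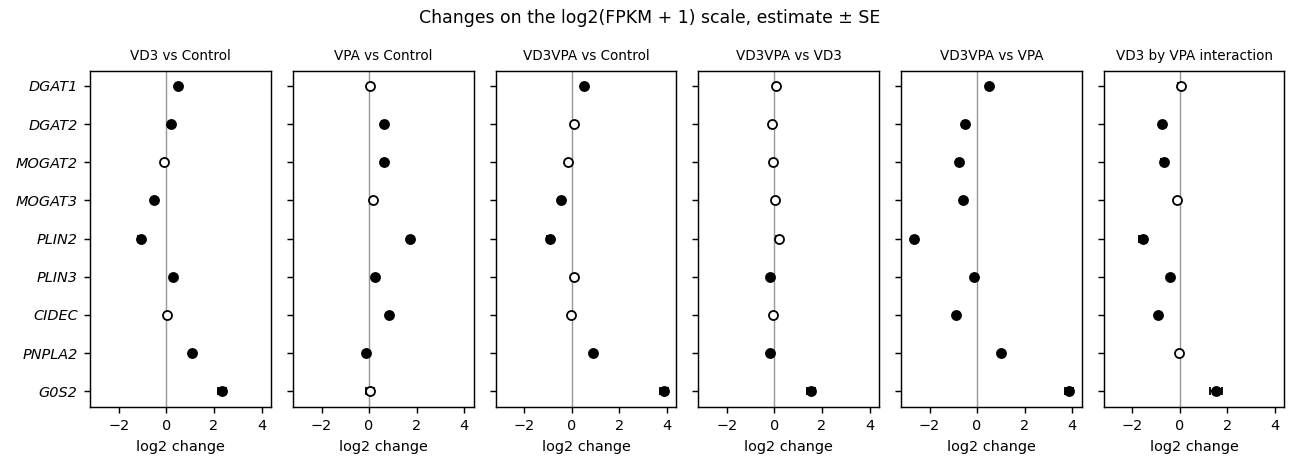
Log2 change on the log2(FPKM + 1) scale (x axis) of the 9 tested genes (y axis) in 5 pairs of groups and in the interaction, as estimate ± SE, with filled points for an adjusted p under 0.05. G0S2 with both compounds against Control, at 3.89, and PLIN2 with both against VPA, at -2.64, lie farthest from 0 on either side.

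When VPA was added to cells with VD3, G0S2 rose (1, beside 17.5% of all tested genes) and PLIN3 and PNPLA2 fell (2, beside 17.2%), in all 3 of 9 beside 34.7%. Without VD3VPA replicate 3 the count was 1, G0S2, beside 27.4% of all tested genes. Adding VD3 to cells with VPA changed all 9 tested genes, beside 63.3% of all tested genes. G0S2, PNPLA2 and DGAT1 rose (3, beside 28.6%), and PLIN2, MOGAT2, CIDEC, MOGAT3, DGAT2 and PLIN3 fell (6, beside 34.7%).

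Whether VPA acted differently with VD3 than without it was tested as an interaction, the VPA change with VD3 minus the VPA change without it. It was called for 6 of the 9 genes, beside 44.3% of all tested genes, with 1 positive beside 19% and 5 negative beside 25.3%. It was positive for G0S2 (log2 change 1.51, SE 0.24, adjusted p = 0.000511), the only one of the 9 with that sign and a call. It was negative for PLIN2 (log2 change -1.55, SE 0.15, adjusted p = 2.07e-05), CIDEC (log2 change -0.91, SE 0.0997, adjusted p = 4.24e-05) and DGAT2 (log2 change -0.73, SE 0.081, adjusted p = 4.63e-05). These 3 genes rose with VPA alone and did not pass the test for VPA in the presence of VD3. MOGAT2 (log2 -0.65, adjusted p = 0.00117) and PLIN3 (log2 -0.40, adjusted p = 0.000419) were negative too. DGAT1, PNPLA2 and MOGAT3, whose main change was with VD3, gave log2 interactions of 0.048, -0.049 and -0.11 (adjusted p = 0.749, 0.582 and 0.431), which the test did not tell from 0. Their signs are not firm, since other scalings turned that of PNPLA2 and, with own fragment totals, that of MOGAT3.

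**Figure D3:**
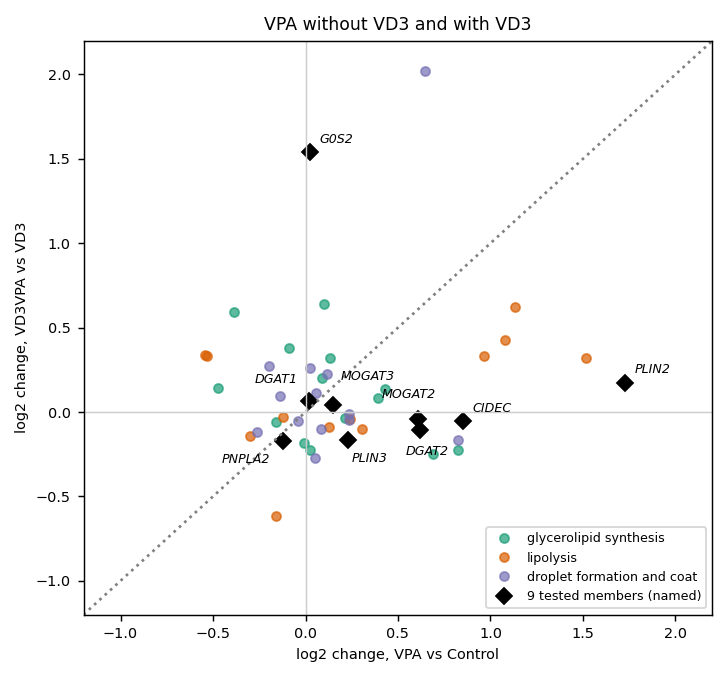
Log2 change with VPA in the presence of VD3 (y axis) against the change with VPA alone (x axis) for the 9 tested genes and 39 other genes of glycerolipid synthesis, lipolysis and droplets, with a dotted line where both are equal. PLIN2, at 1.73 and 0.17, and CIDEC, at 0.85 and -0.053, lie far below the line, and G0S2, at 0.024 and 1.54, far above it.

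Ratios of paired genes within a library do not depend on how that library was scaled. The ratio of G0S2 to PNPLA2, inhibitor to lipase, was 2.32 ± 0.516 in Control, 5.51 ± 0.810 with VD3, 2.59 ± 0.580 with VPA and 18.1 ± 0.359 with both (SD, n = 3). Both genes rose with VD3, the inhibitor by more, and the VD3VPA libraries, at 17.6 to 18.3, were far above all others. The ratio of PLIN2 to PLIN3 was 0.294 ± 0.0462 in Control, 0.104 ± 0.0177 with VD3, 0.869 ± 0.0222 with VPA and 0.135 ± 0.00800 with both, and no groups overlapped. The ratio of DGAT1 to DGAT2 was 6.34 ± 0.554 in Control, 7.63 ± 1.16 with VD3, 4.11 ± 0.411 with VPA and 8.58 ± 0.266 with both. It was lowest in the 3 VPA libraries. The ratio of MOGAT3 to MOGAT2 fell from 13.5 ± 3.39 in Control to 7.21 ± 1.02 with VPA, without overlap. In 14 of 20 such comparisons the groups did not overlap, each with p = 0.1 in a two-sided exact permutation test, the smallest that 3 against 3 libraries allow. These comparisons share libraries, and the share without overlap among other pairs of genes was not computed. The count therefore does not set these ratios apart from those of other genes.

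**Figure D4:**
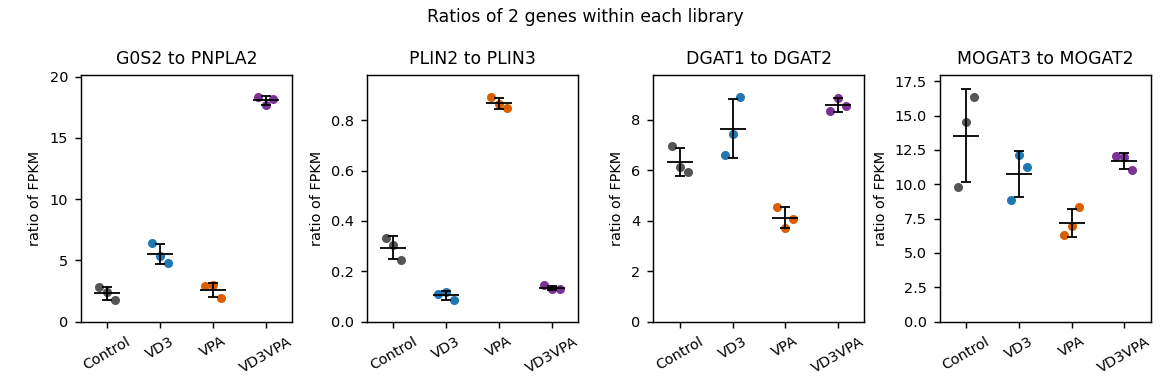
Ratios of FPKM of paired genes within each library (y axis, linear from 0) by group (x axis), with points for libraries and bars for the mean ± SD of 3 libraries. The G0S2 to PNPLA2 ratio of the VD3VPA libraries, at 17.6 to 18.3, and the PLIN2 to PLIN3 ratio of the VPA libraries, at 0.849 to 0.893, stand above all others.

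The sequences before the transcription start are shown for the genes with the largest log2 rises with VD3 (G0S2, PNPLA2) and with VPA (PLIN2, CIDEC). By ratio of mean FPKM, MOGAT2 rose more with VPA than CIDEC did (2.04 against 1.85), but no RefSeq promoter was matched to it. They are the 250 bases before the start in RefSeq (GRCh38.p14), written 5′ to 3′ along the gene's own strand, and the first RefSeq start is shown for CIDEC. The windows are chr1:209675162-209675411 (plus strand) for G0S2, chr11:818664-818913 (plus strand) for PNPLA2, chr9:19127493-19127742 (minus strand) for PLIN2 and chr3:9880254-9880503 (minus strand) for CIDEC. Capitals mark matches to the motifs named after them.
G0S2: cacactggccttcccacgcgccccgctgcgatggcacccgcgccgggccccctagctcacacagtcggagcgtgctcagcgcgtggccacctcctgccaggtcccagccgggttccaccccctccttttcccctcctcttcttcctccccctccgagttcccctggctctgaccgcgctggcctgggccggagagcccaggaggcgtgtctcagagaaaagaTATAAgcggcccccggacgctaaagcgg
PNPLA2: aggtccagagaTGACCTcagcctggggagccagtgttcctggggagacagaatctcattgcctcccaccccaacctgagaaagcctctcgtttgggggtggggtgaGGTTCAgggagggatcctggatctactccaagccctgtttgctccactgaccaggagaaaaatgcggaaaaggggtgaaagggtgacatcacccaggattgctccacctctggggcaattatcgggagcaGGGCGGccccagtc
PLIN2: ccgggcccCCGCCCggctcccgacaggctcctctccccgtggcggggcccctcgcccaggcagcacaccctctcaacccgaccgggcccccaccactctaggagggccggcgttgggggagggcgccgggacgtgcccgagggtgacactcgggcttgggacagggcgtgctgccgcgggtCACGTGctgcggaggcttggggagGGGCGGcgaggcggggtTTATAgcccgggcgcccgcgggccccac
CIDEC: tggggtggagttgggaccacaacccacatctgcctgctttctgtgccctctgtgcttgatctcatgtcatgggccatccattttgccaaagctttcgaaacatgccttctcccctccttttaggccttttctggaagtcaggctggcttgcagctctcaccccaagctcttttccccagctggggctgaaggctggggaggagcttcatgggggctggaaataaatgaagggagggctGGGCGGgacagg

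A set of 8 motifs was searched on both strands in windows of 250 bases before to 50 bases after the start, and distances below run to the first base of a match. The nuclear receptor hexamer AGGTCA, held by 13.8% of 35116 RefSeq promoters, was found in PNPLA2 (as TGACCT, 239 bases before the start) and in MOGAT3 (238 bases before it). The hexamer GGTTCA, a variant known from vitamin D response elements, is in 8.62% of promoters and was found in PNPLA2, 144 bases before the start. Direct repeats of AGGTCA with 1 or 3 bases of any kind between the copies, in 8 and 2 of all promoters, were not found in the windows of the 7 genes with an entry. The E-box CACGTG, in 7.26% of promoters, was found in PLIN2, 69 bases before the start. The TATA core TATAA, in 20.4% of promoters, lay 28 bases before the start in G0S2 and, as TTATA, in PLIN2. The GC box GGGCGG, in 44.95% of promoters, occurred 12 bases before the start in CIDEC, 14 in PNPLA2, 242 (as CCGCCC) and 45 in PLIN2, 146 and 110 in PLIN3, and 182 and 20 (both as CCGCCC) in the first CIDEB window. CCAAT, in 34.6% of promoters, was in PLIN3 as ATTGG and in the second CIDEB window. The PLIN2 window was 76.7% G or C with 36 CpG and that of CIDEC 55% with 2 CpG, beside medians of 58.7% and 14 over all promoters. By symbol, 7 of the 10 genes were matched to a RefSeq promoter, and DGAT1, DGAT2 and MOGAT2 were not.

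Other genes of glycerolipid synthesis, with the sterol ester genes SOAT1 and SOAT2 under the same label, were counted as a list of 16, of which 14 were tested. VPA raised 5 and lowered 2 of them, and 7 did not pass the test, so that 7 were called beside 52.7% of all tested genes, with a median log2 change of 0.095 beside 0.015 over all tested genes. LPIN2, a phosphatidate phosphatase, rose by 0.83 on the log2 scale (adjusted p = 1.18e-06) and AGPAT3, an acyltransferase, by 0.69 (adjusted p = 5.65e-07), while GPAM, the mitochondrial glycerol phosphate acyltransferase, had a log2 change of -0.47 (adjusted p = 8.07e-05). With VD3 5 rose and 4 fell, beside 62.5% of all tested genes called. SOAT1, which esterifies cholesterol, went from 3.14 ± 0.102 to 7.55 ± 0.971 FPKM (adjusted p = 2.52e-07), and AGPAT5, a further acyltransferase, from 4.48 ± 0.708 to 1.24 ± 0.0207 FPKM (adjusted p = 1.51e-07). MOGAT1, the third monoacylglycerol acyltransferase, was at 0.0224 ± 0.0387 FPKM in Control, 1.34 ± 0.258 with VD3, 0.0952 ± 0.0368 with VPA and 2.65 ± 0.497 with both, and passed the filter only through the groups with VD3. A gene that passes in this way had to differ with VD3, so MOGAT1, which is among the 5 that rose, supports nothing about the counts of this list. For LPIN2 and AGPAT3 the log2 interaction was -1.05 and -0.94 (adjusted p = 7.98e-06 and 3.09e-06), the sign seen for DGAT2. For AGPAT5 and GPAM it had the other sign, at 0.98 and 0.62 (adjusted p = 7.24e-05 and 0.000263). The interaction was called positive for 4 genes of the list and negative for 5, and 5 did not pass the test, so the list had no common sign.

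Of 14 other genes of fat breakdown 12 were tested. All 12 were called with VD3, 7 higher and 5 lower, and VPA raised 6, lowered 4 and left 2 short of the threshold, beside 62.5% and 52.7% of all tested genes called. The median log2 changes were 0.21 with VD3 and 0.18 with VPA. MGLL, the monoacylglycerol lipase, went from 2.88 ± 0.461 FPKM in Control to 8.51 ± 0.613 with VD3 (adjusted p = 1.29e-07). ABHD6, which also cleaves monoacylglycerol, went from 3.997 ± 0.561 to 2.52 ± 0.144 FPKM with VD3 and to 9.94 ± 0.888 with VPA (adjusted p = 0.000253 and 9.71e-07). PNPLA3, a droplet protein related to PNPLA2, was at 10.8 ± 0.783 FPKM in Control, 18.8 ± 1.901 with VD3, 7.12 ± 0.404 with VPA and 23.9 ± 0.841 with both, and its log2 interaction was 0.88 (adjusted p = 6.35e-05). HILPDA, known as another inhibitor of adipose triglyceride lipase, fell by 0.53 with VPA and had an interaction, both on the log2 scale, of 0.86 (adjusted p = 0.000567 and 0.0003600). PNPLA3 and HILPDA were the only positive calls of the interaction in this list, 2 beside 19% of all tested genes. Negative calls were 8, beside 25.3%, and the median log2 interaction was -0.35 beside -0.014 over all tested genes. That of LIPE was -0.66 (adjusted p = 0.000499). AADAC, a microsomal esterase, was at 28.2 ± 13.1 FPKM with VPA, a wide spread, and its log2 interaction of -1.19 (adjusted p = 0.0373) was lost in 13 of 21 other settings. ABHD5, the coactivator of adipose triglyceride lipase, was chosen after its values were seen. On the log2 scale it changed by 0.15 with VD3 and 0.30 with VPA (adjusted p = 0.01899 and 0.000255), the first lost in 6 of 22 other settings.

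Of 20 other droplet genes 13 were tested. PLIN1, PLIN4, PLIN5 and CIDEA, the other perilipins and CIDE gene, were below the filter. With VD3 3 rose, 6 fell and 4 did not pass the test (median log2 change -0.10), and VPA raised 4 and lowered 2, with 7 not past the threshold (median log2 change 0.058), beside 62.5% and 52.7% of all tested genes called. The 2 that fell with VPA, SPART and TMEM159, lost the call in 5 and 3 of 22 other settings. HSD17B11, a droplet-bound dehydrogenase, was at 95.9 ± 0.761 FPKM in Control, 225 ± 10.5 with VD3, 170.4 ± 6.54 with VPA and 201 ± 3.21 with both. METTL7A, a droplet-associated methyltransferase-like protein, was at 0.893 ± 0.0524 FPKM in Control, 3.03 ± 0.461 with VD3, 1.99 ± 0.4497 with VPA and 15.3 ± 1.11 with both. It passed the filter on low values only through the groups with a compound, so its rises support nothing about the counts of this list. Its log2 interaction was 1.37 (adjusted p = 3.91e-05), and that of HSD17B11 was -0.99 (adjusted p = 2.11e-06). On the log2 scale METTL7B fell by 1.12 and FITM2, which helps droplets bud, by 0.50 with VD3 (adjusted p = 8.41e-07 and 1.60e-05).

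**Figure D5:**
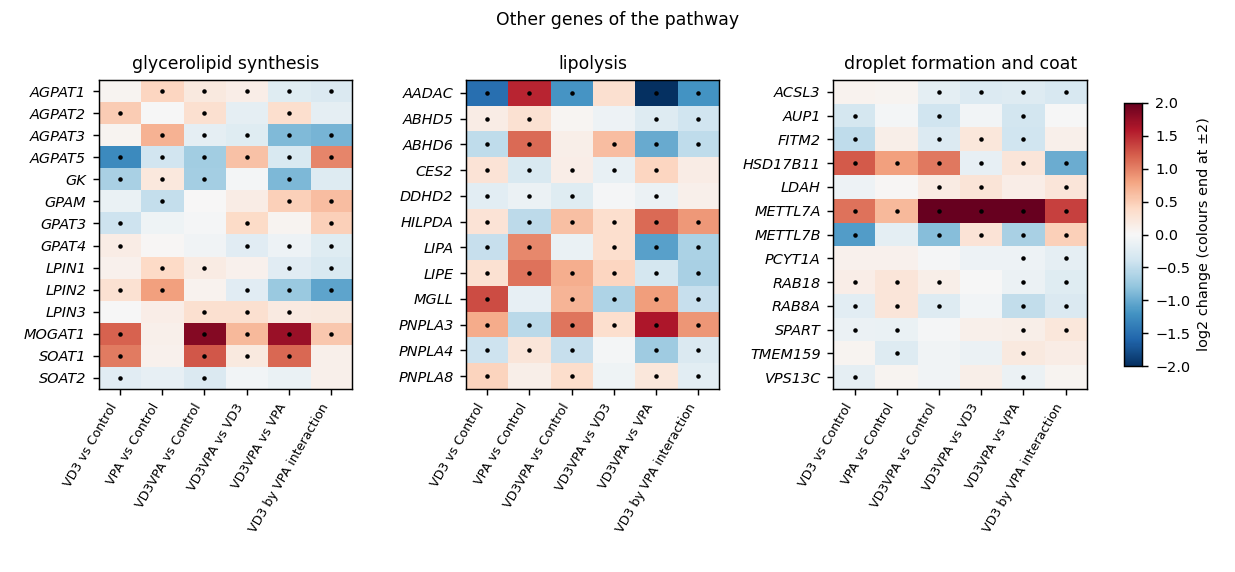
Log2 change on the log2(FPKM + 1) scale (colour, ending at ±2) of 39 other tested genes of glycerolipid synthesis, lipolysis and droplets (rows) in the 6 comparisons (columns), with a dot for an adjusted p under 0.05. METTL7A lies past the upper end of the colours in all 3 comparisons of VD3VPA with another group, at 3.10 against Control, and AADAC falls with VD3 and rises with VPA.

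Of 16 regulators of lipid metabolism 15 were tested. VPA raised 7 and lowered 3, with 5 not past the threshold and a median log2 change of 0.13, and with VD3 9 rose and 2 fell, with a median log2 change of 0.19, beside 52.7% and 62.5% of all tested genes called. CREB3L3, a liver and gut factor that drives genes of triglyceride handling, went from 20.5 ± 0.982 FPKM in Control to 85.99 ± 5.13 with VPA and 34.2 ± 2.998 with both, and its log2 interaction was -1.24 (adjusted p = 1.19e-05). PPARG, the fatty acid receptor that drives CIDEC and PLIN2 in fat cells, fell on the log2 scale by 0.48 with VPA and by 0.34 with VD3 (adjusted p = 0.000789 and 0.00589). PPARA, the fatty acid receptor of liver and gut, was at 3.87 ± 0.119 FPKM in Control and 8.33 ± 0.737 with both compounds (adjusted p = 1.72e-06). MLXIPL, the sugar-responsive factor of fat synthesis, went from 2.07 ± 0.182 to 4.04 ± 0.467 FPKM with VD3 (adjusted p = 5.89e-06). Of 22 genes known to respond to PPAR receptors 19 were tested, and 11 rose and 4 fell with VPA (median log2 change 0.27), while 9 rose and 4 fell with VD3 (median log2 change 0.19), beside the same 52.7% and 62.5%. PDK4, which spares glucose, went from 0.0809 ± 0.0477 to 4.08 ± 1.09 FPKM with VPA and passed the filter on low values only through the groups with VPA, and FABP1, a fatty acid carrier, fell by 0.83 on the log2 scale (adjusted p = 0.000789). CPT1A, at 0.830 FPKM in Control, 0.699 with VD3, 1.91 with VPA and 1.48 with both, passed in the same way as PDK4. VNN1, at 0.338, 12.9, 0.372 and 5.98 FPKM in that order, passed only through the groups with VD3. Genes that pass in these ways had to differ between groups, so PDK4, CPT1A and VNN1 support nothing about the counts of this list. CREB3L3 and LPIN1 each stand in more than 1 of these lists.

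The genes most like each member over the 12 libraries were named by Pearson's r of log2(FPKM + 1), as a description. The libraries fall into 4 groups, so r mostly reflects the group means. SLC7A7, an amino acid transporter subunit (r = 0.998), NDNF (0.996) and ELOVL5, a fatty acid elongase (0.995), were most like PLIN2. MINPP1 (r = 0.994), MPHOSPH10 (0.993) and FGD3 (0.993) were most like G0S2. RDH10, a retinol dehydrogenase (r = 0.995), TMEM86B (0.994) and SLC37A2 (0.993) were most like PNPLA2. For the other 6 tested genes the highest r was 0.984 for CIDEC with RNF11, 0.977 for DGAT1 with GSTM3, 0.979 for DGAT2 with REEP1, 0.984 for MOGAT2 with NAGPA, 0.987 for MOGAT3 with ZNF430 and 0.954 for PLIN3 with DRAM2.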

How the data were processed

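Poly-A RNA libraries were made from the 12 samples, per the labels' protocols. The authors deposited FPKM values per gene and library with gene lengths, per the file headers. The build GRCh38.p13 and the tools DESeq2 1.20.0, featureCounts 1.5.0-p3 and HISAT2 2.0.5 are listed, per the submitters' processing notes, with roles not given in the sources used here. All 58735 genes matched GENCODE v29 in identifier, start and end. FPKM times gene length and a constant per library gave whole fragments for 100% of values within 0.01, which served for depth and the voom alternative. The numbers 32160289 to 43998467 per library are recovered fragments, and they limit the precision of low genes most.

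The 12578 genes that reached 1 FPKM in 3 or more libraries were fitted on log2(FPKM + 1) in limma 3.58.1 (R 4.3.3) with a trended prior and 1 mean per group, with 8 residual degrees of freedom. Each comparison had its own Benjamini-Hochberg adjustment, with calls under 0.05. Folds are ratios of mean FPKM. The fit was tested on simulated data. Ratios used exact permutation in SciPy 1.17.1 (Python 3.11.15, pandas 2.3.3, numpy 2.4.6, matplotlib 3.10.9). The genes and lists were chosen with earlier results of these data known. Named pathway genes come from the called genes with up to 2 of the largest rises and falls per list and comparison, and most-alike genes are the 3 protein-coding genes of highest r. Alternatives changed the pseudocount (0.1 or 0.5), the filter (none or 0.3 FPKM), the scaling, the model, the groups fitted and the libraries, or added a replicate block.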

Additional observations from a re-analysis of the deposited data

Results flagged for a closer look

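The VPA change differed with and without VD3, by the interaction test in limma with Benjamini-Hochberg adjustment, for 6 of the 9 tested genes, where 44.3% of all tested genes did. On the log2(FPKM + 1) scale the difference was 1.5136 for G0S2, which VPA raised only in the comparison with VD3 present. It was -1.5533 for PLIN2, -0.9068 for CIDEC, -0.7266 for DGAT2 and -0.652 for MOGAT2, which VPA raised in the comparison without VD3. It was -0.3987 for PLIN3, which rose with VPA alone and fell when VPA was added to VD3. In each of the 6 the call held in the 21 other settings tried. MOGAT2 passed the filter of 1 FPKM only through the VPA libraries, so its call supports nothing about the count of 6. That filter was kept in all settings but those with no filter or a filter of 0.3 FPKM, so the other settings do not bear on this limit.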

How the results depend on the processing

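Over 54 gene and comparison pairs of the 9 tested genes and 1179 refits under other settings, 1127 kept direction and side of the threshold, 20 lost a call, 5 gained one and 27 changed sign, and in 0 of the last was the gene called in either fit. With equal FPKM sums, own fragment totals and quantile normalization the change of CIDEC with VD3 was -0.024, -0.057 and -0.0085, that of G0S2 with VPA -0.049, -0.098 and -0.093, that of DGAT1 with VPA -0.055, -0.11 and -0.12, and the interaction of PNPLA2 0.025, 0.10 and 0.059. With own fragment totals the interaction of MOGAT3 was 0.042. Leaving out each library in turn, sign changes lay within these ranges: -0.0095 to 0.13 (DGAT1, interaction), -0.073 to 0.010 (CIDEC, VD3VPA against Control), -0.040 to 0.080 (CIDEC, VD3), -0.16 to 0.21 (G0S2, VPA), -0.026 to 0.077 (DGAT1, VPA), -0.082 to 0.0052 (PNPLA2, interaction), and for VD3VPA against VD3 -0.085 to 0.029 (MOGAT2), -0.12 to 0.0033 (CIDEC) and -0.0054 to 0.071 (MOGAT3). In the same refits the number of the 9 genes called ranged from 7 to 7 (VD3), 5 to 6 (VPA), 5 to 6 (both against Control), 1 to 3 (both against VD3), 8 to 9 (both against VPA) and 6 to 6 (interaction). The 1 arose without VD3VPA replicate 3, beside 27.4% of all tested genes. Over all 12578 tested genes the calls ranged from 7152 to 7824 (VD3), 5984 to 6609 (VPA) and 7417 to 8071 (both against Control). They ranged from 3407 to 4711 (both against VD3), 7248 to 8154 (both against VPA) and 4891 to 5441 (interaction). Beyond the ranges of the 9 genes, own fragment totals called 6 with VD3, beside 63.0% of all tested genes. Quantile normalization called 7 with both against Control, beside 65.6%. The latter added PLIN3 and MOGAT2 (adjusted p = 0.042 and 0.039). The cause of these shifts was not tested.

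Of 2621 refits of the named pathway genes 48 lost a call and 0 changed sign. With own fragment totals the share of higher genes among those called was 36.5% in place of 56.2% with VPA and 67.1% in place of 43.0% in the interaction, and with equal FPKM sums 44.0% and 55.8%. The median interaction of all genes was then 0.113 with own totals. Replicate numbers did not meet the bar for pairing, every correlation over 0.1: residual correlations of same-numbered libraries were -0.083 to 0.15 (median 0.021), beside -0.19 to 0.11 (median -0.016) for other numbers. Of 36 pairs of library and group 18 matched best on their own number, where 12 would by chance. With a replicate block 7, 5, 5, 3, 9 and 6 genes were called, beside 61.8, 52.1, 63.8, 33.7, 62.7 and 43.3% of all tested genes. PNPLA2 with VPA was lost (adjusted p = 0.0663). A fit on only the groups compared was not run for the interaction, which needs all 4. Depth limits MOGAT2 most.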
